A study of Mus musculus with 3 samples.

Results

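The genes described here make ribosomes: 45 protein-coding genes that act in the nucleolus or hand its products on. They were chosen by name as a functional group, all 45 were found among the 24982 gene symbols of the deposited files, and they were divided by role into Myc (1 gene), nucleolar chaperones (3), small nucleolar ribonucleoproteins or snoRNPs (8), the small-subunit processome and later small-subunit factors (13), large-subunit assembly (14) and RNA polymerase I with its initiation factors (6). RNA sequencing was done on LKS (Lin-Kit+Sca1+) cells, a sorted bone marrow fraction in which blood stem cells and their earliest progeny are found. There were 2 libraries from wild-type (WT) recipient mice and 1 from CD73-/- recipients (KO). CD73 is an ectoenzyme that makes adenosine from AMP outside the cell. A further label calls the same cells LLP and does not say what that means. The labels give no age, strain, sex or treatment for any group, do not state whether donor or recipient cells were sorted, and name no animals for the WT libraries. If these share an animal, the p-values below rest on technical spread alone.

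Ribosome production begins when RNA polymerase I copies the ribosomal DNA into a long precursor. SnoRNPs guide methyl groups and pseudouridines onto this precursor, the small-subunit processome folds and cuts it, and separate sets of factors then assemble the small and the large subunit. Myc is a transcription factor known to drive many of these genes, and in blood stem cells the rate of protein synthesis is known to be held low.

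Depth was low, at 264704 to 361638 gene-level counts per library, and 3 counts, the upper limit for a gene at 0, equal 8.30 to 11.3 CPM (counts scaled to the library's total of gene counts). Intervals cover counting error only. Kit, the stem cell factor receptor of the sorting gate, had 187 and 207 counts in WT replicates 1 and 2 and 147 in KO, and Ly6a, which encodes Sca1, had 60, 19 and 36. The summed CPM of 8 stem cell and gate genes was 2052, 2228 and 1413 in the same order. Of the markers of other cells, the dendritic cell list summed to 301, 579 and 790 CPM with 4 of its 8 genes at 0 in every library (Siglech, Batf3, Zbtb46 and Cd209a), the erythroid list to 705, 419 and 907 with 4 of 10 at 0 (Klf1 among them), the megakaryocyte list to 550, 739 and 982 with 2 of 7 at 0, and the mature neutrophil list to 824, 1117 and 385 with 1 of 10 at 0. The monocyte and macrophage list summed to 108, 425 and 280 CPM with 2 of 9 at 0, the B lineage list to 16.6, 64.6 and 7.56 with 4 of 8, the T and NK lineage list to 194, 105 and 155 with 6 of 9, and the stroma and endothelium list to 149, 218 and 128 with 6 of 10. The part of these differences in the values below was not tested. In bulk libraries, fewer cells of a type and less RNA per cell cannot be told apart.

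As a group the 45 genes took a smaller share of the KO library than of either WT library. Their summed level was 8708 CPM in WT replicate 1 (95% exact Poisson interval 8406 to 9017), 7429 in WT replicate 2 (7135 to 7731) and 6607 in KO (6301 to 6924). The WT mean was 8068 ± 904 CPM (SD, n = 2), and the KO sum was 81.9% of it. All 45 genes had a count in both WT libraries, and 44 had one in KO.

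**Figure D1:**
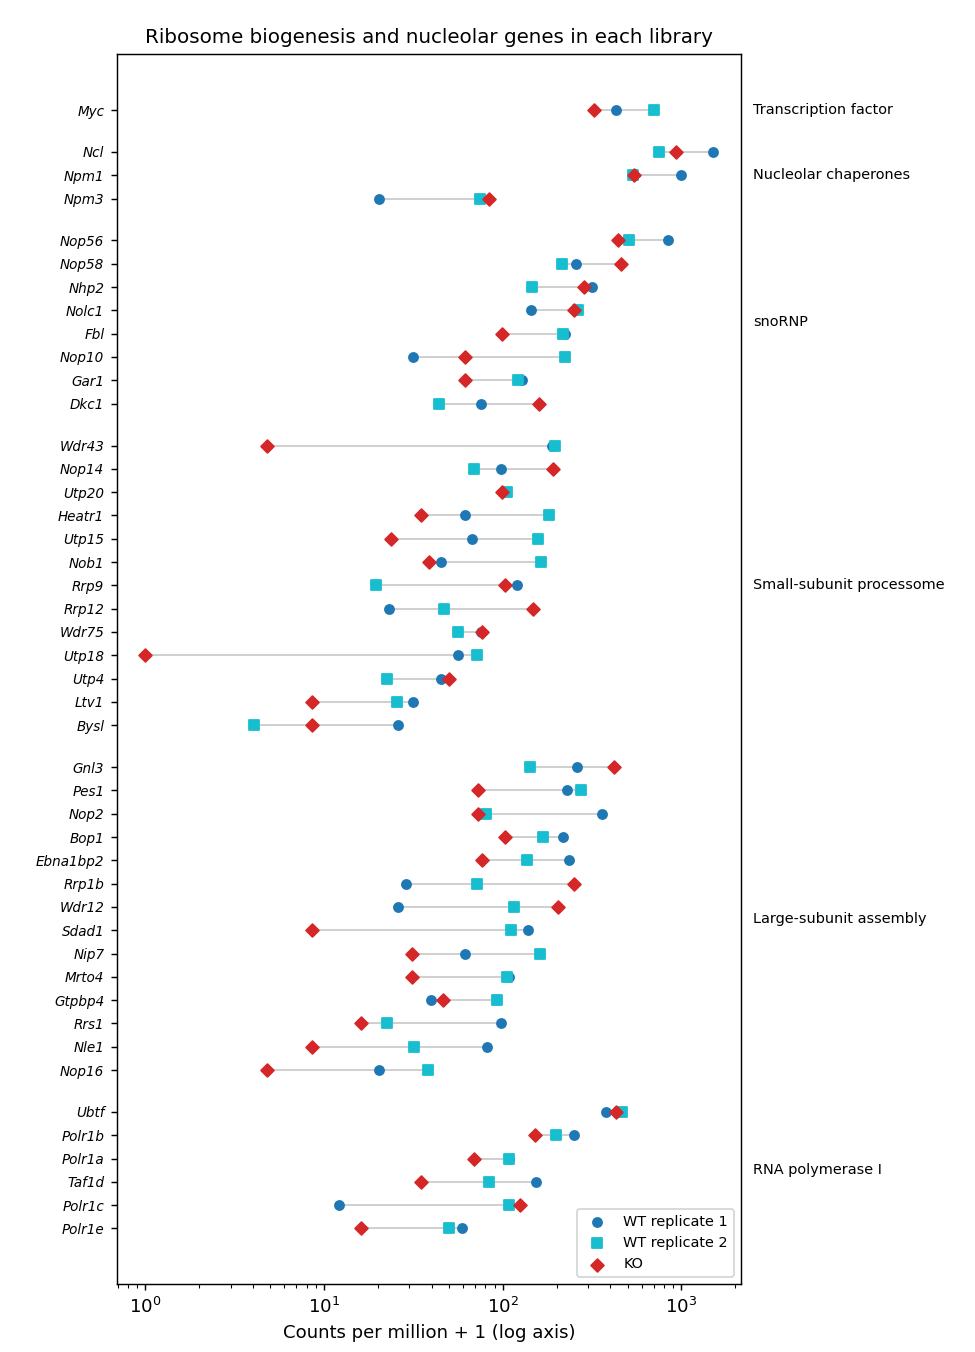
Level of each of the 45 genes as CPM plus 1 (log axis) in WT replicate 1 (circles), WT replicate 2 (squares) and KO (diamonds), grouped by role. Ncl has the highest CPM of the 45 in every library, Utp18 has 0 counts in KO, and the distance between the WT symbols is often as wide as that to the KO symbol.

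No single gene of the group passed the test. Of the 43 genes that passed the filter on low counts, edgeR's quasi-likelihood test called 0 higher and 0 lower in KO (threshold 0.05 after Benjamini-Hochberg adjustment over 7984 genes). Of all tested genes it called 0.100% higher and 0.00% lower. At an unadjusted p under 0.05, 1 member was higher (Rrp1b), against 3.53% of all genes, and 3 were lower (Wdr43, Utp18 and Sdad1), against 6.51%. DESeq2 called 0 members and 0.00% of all genes after adjustment. At an unadjusted p under 0.05 it gave 0 members higher, against 2.07% of all genes, and 3 lower, against 5.71%. The genes that did not pass the filter were Bysl (9 and 1 counts in WT replicates 1 and 2 and 2 in KO, the order used throughout) and Ltv1 (11, 8 and 2).

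More members were below the WT level in KO than above it, in a table where the same holds for all genes. The median fitted log2 fold change was -0.62 over the 43 genes and -0.31 over all genes tested, and 28 of 43 were negative, against 56.9% of all genes. On CPM, KO lay below both WT libraries for 24 of the 43, against 38.2% of all genes tested, and above both for 11, against 31.1%. Without WT replicate 1 the median was -0.45 over the members and -0.13 over all genes, and without WT replicate 2 it was -0.66 and -0.11. With no filter on low counts, which takes in all 45 members, it was -0.78 against -0.60.

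A rule of size that uses no pooled spread was applied beside the test. A gene met it if 1 library or more had 50 counts and if KO was 2-fold or more above, or 2-fold or more below, both WT libraries, on CPM scaled by the trimmed mean of M-values (TMM) plus 1. Of the 26 members that could meet it, 6 (23.1%) were lower (Fbl, Utp15, Wdr43, Pes1, Sdad1 and Taf1d), against 17.6% of all such genes, and 1 (3.85%) was higher (Rrp1b), against 9.64%. These shares are near those of all genes, and the rule serves here to name genes. A gene could enter the rule through the WT libraries alone, and 18 and 17 members reached 50 counts in WT replicates 1 and 2 but 12 in KO, the shallowest library. With WT replicate 1 as the library set apart, 1 member was higher (10.5% of all such genes) and 2 were lower (8.19%). With WT replicate 2 set apart, 5 were higher (12.6%) and 1 was lower (12.1%). Against WT replicate 2 alone (without WT replicate 1), 5 of 22 members were higher in KO, against 22.1% of all genes, and 9 were lower, against 28.1%. Against WT replicate 1 alone, 2 of 21 were higher, against 18.4%, and 8 were lower, against 27.0%.

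**Figure D2:**
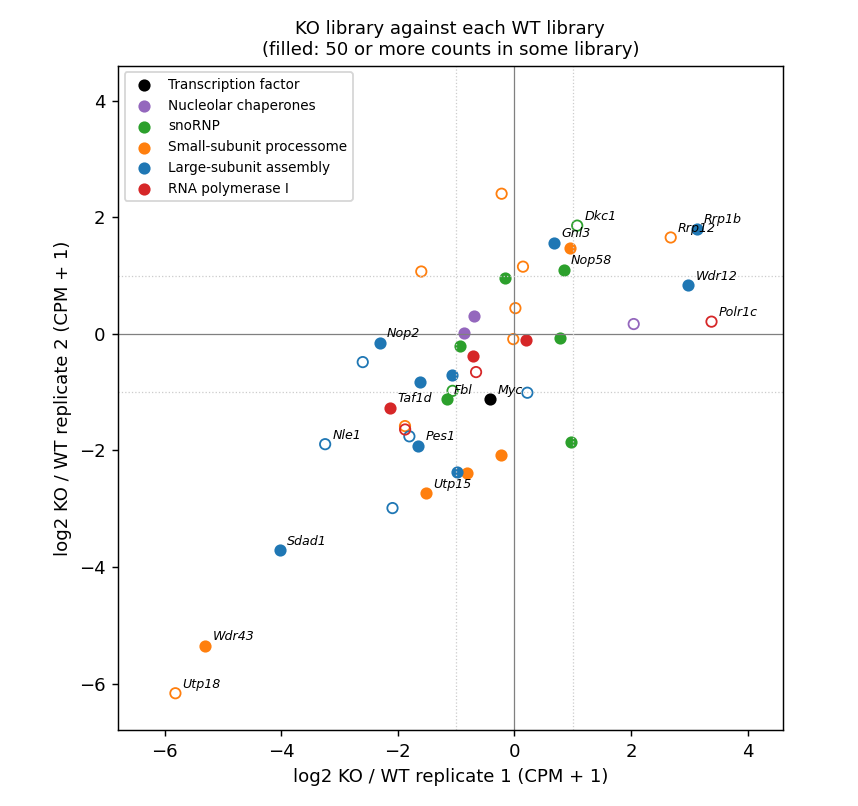
Each gene's log2 ratio of KO to WT replicate 1 (horizontal) and to WT replicate 2 (vertical), on CPM plus 1, coloured by role, with filled points for the 26 genes of at least 50 counts in some library and dotted lines at 2-fold. Wdr43, Utp18 and Sdad1 lie farthest to the lower left, Rrp1b and Rrp12 lie to the upper right, and genes such as Nop2 and Polr1c lie near an axis, with KO close to 1 WT library and far from the other.

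The spread within the WT pair sets the limit of these comparisons. The WT libraries differed by at least 2-fold in 18 of the 43 members, against 55.1% of all genes tested. Polr1c had 4 counts in WT replicate 1 and 35 in WT replicate 2, Nop10 had 11 and 72, and Rrp9 had 43 and 6. The KO counts of the 3 genes were 33, 16 and 27. On CPM these lay within the WT range for Nop10 and Rrp9, and for Polr1c just above it (125 against 108).

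Myc, the transcription factor of the group, had 155, 227 and 85 counts, or 429, 699 and 321 CPM. KO was the lowest library, but the gap between the WT libraries (1.63-fold) was wider than that between KO and WT replicate 1. On the log2 scale the fitted difference was -0.77 (SE 0.66, adjusted p 0.79). Of 10 other genes of the Myc network, Mycn, its relative in stem cells, had 1, 62 and 0 counts, and Mnt, a repressor that competes for the shared partner Max, had 16, 53 and 2. Mnt was lower in KO by the size rule. Mycn met the rule only through WT replicate 2, since WT replicate 1 and KO were both at or under the limit that a count of 0 allows, so no difference between KO and WT is read from it. Mga, the most abundant of the 10, had 22, 34 and 20, and 0 of the 8 tested passed the test in either direction.

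The nucleolar chaperones include the most abundant genes of the whole group. Ncl, nucleolin, a major RNA-binding protein of the nucleolus, had 540, 243 and 245 counts (1493, 748 and 926 CPM), and Npm1, nucleophosmin, a histone and ribosome chaperone, had 357, 173 and 143 (987, 532 and 540 CPM). In both, WT replicate 1 stood well above the other libraries and KO lay between the WT values. The log2 fold changes were -0.24 (SE 0.43) and -0.46 (SE 0.54). Npm3, a smaller relative of Npm1, went the other way, with 7, 24 and 22 counts. The sum over the 3 genes, 2500, 1354 and 1549 CPM, therefore separated WT replicate 1 from the rest and not KO from WT.

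Per kilobase of transcript the order differs from that of the counts. On FPKM, as deposited and summed over the transcripts of a gene, Npm1 was the highest of the 45 genes at 717, 423 and 396, followed by Nop56 at 418, 269 and 233. Nhp2 had 329, 156 and 322 FPKM, and Myc had 180, 294 and 136. The ranges of Nop56, Nhp2 and Myc overlap across libraries, so their order is not fixed by these data. At the other end stood Bysl, with 7.15, 0.89 and 2.19 FPKM.

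SnoRNP genes were divided. The proteins of box C/D particles, which methylate ribosomal RNA, gave values in both directions. Fbl, the methyltransferase fibrillarin, had 80, 70 and 26 counts (221, 215 and 98.2 CPM), with close agreement between the WT libraries and KO at 45% of the pooled WT level (95% exact counting interval 28.4% to 68.5%). Nop58, its partner in the same particle, had 92, 69 and 121 (254, 212 and 457 CPM), and KO was above both WT libraries. Nop56, the other core partner, had 304, 164 and 116 (841, 505 and 438 CPM). The log2 fold changes of Fbl, Nop58 and Nop56 were -1.11 (SE 1.07), 1.01 (SE 0.76) and -0.58 (SE 0.58). Nop56 is overlapped on the opposite strand by Idh3b (73, 119 and 17 counts), and the use of strand in counting is not given in the sources used here, so such pairs cannot be told apart.

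The H/ACA particles, which turn uridine into pseudouridine, also gave values in both directions. Dkc1, the pseudouridine synthase dyskerin, had 27, 14 and 42 counts and was highest in KO at 159 CPM against 74.7 and 43.1. Gar1, a core protein, had 46, 39 and 16 counts and was lowest in KO. Nhp2 had 114, 47 and 75 and Nop10 had 11, 72 and 16, both with KO between the WT values. Nolc1, a chaperone of both kinds of particle, had 52, 85 and 66 counts and was likewise between. The 8 snoRNP genes summed to 2008, 1723 and 1806 CPM, with 4 negative and 4 positive fold changes and a median of -0.12, which was 0.35 without WT replicate 2.

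**Figure D3:**
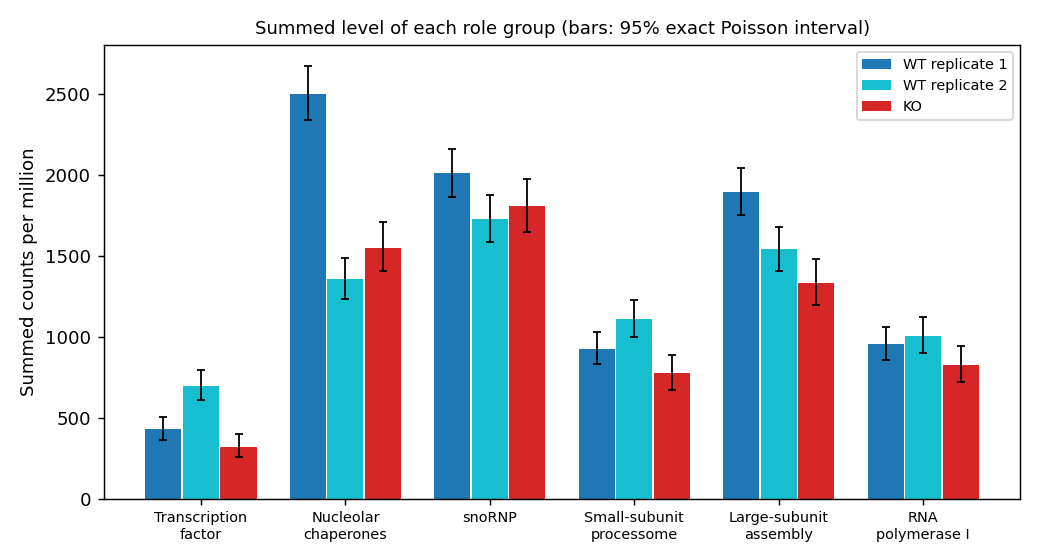
Summed CPM of each role group in the 3 libraries, with 95% exact Poisson intervals as error bars. KO is the lowest library for Myc, the small-subunit processome, large-subunit assembly and RNA polymerase I, lies between the WT libraries for the nucleolar chaperones and the snoRNPs, and its interval overlaps that of at least 1 WT library in every group.

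Small-subunit factors held the largest single differences of the group. Wdr43, a processome protein needed early for transcription and processing of the precursor, had 68, 63 and 1 counts, or 188, 194 and 3.78 CPM. The WT libraries were alike and KO was at 1.98% of the pooled WT level, with a counting interval of 0.05% to 11.2%. Its log2 fold change was -5.48 (SE 1.73, adjusted p 0.15), the smallest adjusted p among the 43 tested genes. Utp18, a scaffold protein of the same particle, had 20, 23 and 0 counts (adjusted p 0.43). Against a floor of 3 counts KO was at least 5.56-fold lower, and its counting interval reached 23.2% of the pooled WT level. Utp15 had 24, 51 and 6 counts, Heatr1 had 22, 59 and 9, and Nob1, the nuclease that makes the end of the small-subunit RNA, had 16, 53 and 10. For these last genes KO was lowest, but WT replicate 2 was also over 2-fold above WT replicate 1.

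Other genes of the small subunit were higher in KO or differed little. Rrp12, which acts on late precursors and their export, had 8, 15 and 39 counts (22.1, 46.2 and 147 CPM), and Nop14, a processome protein, had 35, 22 and 50 (96.8, 67.7 and 189 CPM). Their log2 fold changes were 2.14 (SE 1.46) and 1.23 (SE 1.15). Utp20 had 36, 34 and 26 counts, or 99.5, 105 and 98.2 CPM, nearly the same level in each library. Wdr75 and Utp4, partners of Wdr43 and Utp15 in the same subcomplex, had 27, 18 and 20 and 16, 7 and 13 counts, both above the WT libraries in KO on CPM by less than the counting error. The 13 genes summed to 926, 1108 and 774 CPM, and the 11 tested had 6 negative and 5 positive fold changes. Their median depended on the filter. It was -0.02 as fitted and -0.83 over all 13 with no filter. Over the 7 genes with at least 10 counts in every library or 50 in any it was -1.42. In the same order, the median over all genes was -0.31, -0.60 and -0.10. Wdr43, Utp15 and Heatr1 passed the last filter through a WT library alone, so no direction is read from its median.

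Of the 14 genes of large-subunit assembly, 11 had a negative fold change, against 56.9% of all genes tested. KO was below both WT libraries for 10, against 38.2%, and above both for 3, against 31.1%. The median over the 14 genes was -1.67, against -0.31 over all genes tested. Without WT replicate 1 the median was -0.88, where the value for Myc was -1.07. Over the 10 genes with at least 10 counts in every library or 50 in any it was -1.08, against -0.10 over all genes. Sdad1 and Nip7 passed that filter through a WT library alone, and Wdr12 through KO alone. The processome median was more negative under it and less negative as fitted, so the order of the groups depended on the filter. The summed level of the 14 genes was 1891, 1539 and 1334 CPM. With counts summed over transcript rows, where genes with many rows weigh more, the KO sum was 103% of the WT mean in place of 77.8%. The 37 further large-subunit genes taken from general knowledge summed to 4134, 3468 and 5149 CPM, with KO the highest library at 135% of the WT mean, and their median was -0.16.

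The PeBoW complex, made of Pes1, Bop1 and Wdr12 and needed to process the large-subunit RNA, was split. Pes1 had 82, 89 and 19 counts (227, 274 and 71.8 CPM), with the WT libraries near each other and KO at 28.8% of the pooled WT level (counting interval 16.9% to 46.4%). Bop1 had 78, 54 and 27 counts (216, 166 and 102 CPM), in the same direction. Wdr12 had 9, 37 and 54 (24.9, 114 and 204 CPM), and was highest in KO. The log2 fold changes were -1.76 (SE 1.08), -0.86 (SE 1.10) and 1.60 (SE 1.16), with adjusted p from 0.63 to 0.85.

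Sdad1, a factor of late large-subunit maturation and export, had 50, 36 and 2 counts, or 138, 111 and 7.56 CPM. KO was at 6.03% of the pooled WT level (counting interval 0.72% to 22.5%), with a fitted log2 difference of -3.94 (SE 1.83, adjusted p 0.43). Rrp1b, a nucleolar protein that binds large-subunit precursors, was the opposite case, with 10, 23 and 66 counts (27.7, 70.8 and 249 CPM) and a log2 fold change of 2.38 (SE 1.16, adjusted p 0.47). Gnl3, the GTPase nucleostemin that is abundant in stem cells, had 94, 46 and 111 counts (260, 142 and 419 CPM), with KO above both WT libraries. Gnl3 is overlapped on the opposite strand by Pbrm1 (28, 57 and 39 counts).

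Most of the remaining large-subunit genes were lowest in KO, and the spread in WT was wide for most of them. Nop2, an RNA methyltransferase, had 130, 26 and 19 counts, so KO and WT replicate 2 were alike and WT replicate 1 stood apart. Ebna1bp2 had 85, 44 and 20 and Nip7 had 22, 52 and 8, both with KO the lowest library. Under 50 counts in every library, Mrto4, which holds the place of the stalk proteins, had 39, 34 and 8, with close agreement in WT. Nle1, a maturation factor known to be needed by blood stem cells, had 29, 10 and 2. Rrs1 (35, 7 and 4 counts) and Nop16 (7, 12 and 1) were lowest in KO as well, whereas Gtpbp4 (14, 30 and 12) lay between the WT libraries on CPM.

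Of the 6 RNA polymerase I genes, KO was below both WT libraries for 4, between them for Ubtf and above both for Polr1c (log2 fold change 1.12, SE 1.39), and 0 passed the test. Over all genes tested, KO was below both WT libraries for 38.2% and above both for 31.1%. Polr1a and Polr1b, the largest subunits, had 39, 35 and 18 and 90, 64 and 40 counts. Polr1b was at 249, 197 and 151 CPM, a log2 fold change of -0.52 (SE 0.99). Ubtf, the factor that keeps ribosomal DNA open for transcription, had 136, 150 and 114 counts, or 376, 462 and 431 CPM, with KO between the WT values and a log2 fold change of 0.08 (SE 0.67). Taf1d, a subunit of the promoter selectivity factor, had 55, 27 and 9 counts (152, 83.1 and 34.0 CPM), 3.46-fold lower in KO than the WT mean. Taf1d is overlapped on the opposite strand by Cep295 (34, 45 and 3 counts), which was lowest in KO too. It is also overlapped by 4931406C07Rik (20, 0 and 2), which was not, so the counts of Taf1d are uncertain. Polr1e had 21, 16 and 4 counts, 3.55-fold lower on CPM. The 6 genes summed to 954, 1006 and 824 CPM.

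The other RNA polymerase I genes, 11 taken from general knowledge of the pathway, had a count for 10, 9 and 7 of them, or 63.6% in KO. Over all genes tested, detection was also lowest in KO, the shallowest library, at 94.0%, 93.6% and 87.4%. Rrn3, the factor that makes the polymerase ready to start, had 41, 47 and 0 counts, Polr1g, a polymerase subunit, had 60, 22 and 0, and Baz2a, which silences ribosomal DNA repeats, had 110, 6 and 0. Against a floor of 3 KO counts these were at least 11.4-fold, 10.3-fold and 14.2-fold lower, with adjusted p of 0.18, 0.21 and 0.11. Against WT replicate 2 alone the bounds were 12.8-fold, 5.97-fold and 1.63-fold, so that of Baz2a rests on WT replicate 1, and against WT replicate 1 alone those of Polr1g and Baz2a were 14.6-fold and 26.8-fold. Top1, the topoisomerase, had 72, 25 and 11. The 11 genes summed to 1009, 615 and 332 CPM. A negative fold change was found for 7 of the 9 tested, against 56.9% of all genes tested, with 0 past the test. Rn45s, the annotated transcript of the ribosomal RNA precursor, was 1.33%, 1.46% and 2.07% of all counts. In edgeR it passed the test as higher in KO (log2 fold change 0.61, adjusted p 6.7e-10). The call was lost in 5 of the 9 alternatives that give a test, with adjusted p of 0.10 with no filter on low counts, 0.47 with the stricter filter, 0.42 with summed transcript rows, 0.65 with DESeq2 and 0.82 with limma on FPKM. It rests on 1 KO library. Rn45s comes from a multi-copy gene, so its count is uncertain. Whether its reads came from the precursor or from mature ribosomal RNA was not tested, so no level of the precursor is read from it.

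**Figure D4:**
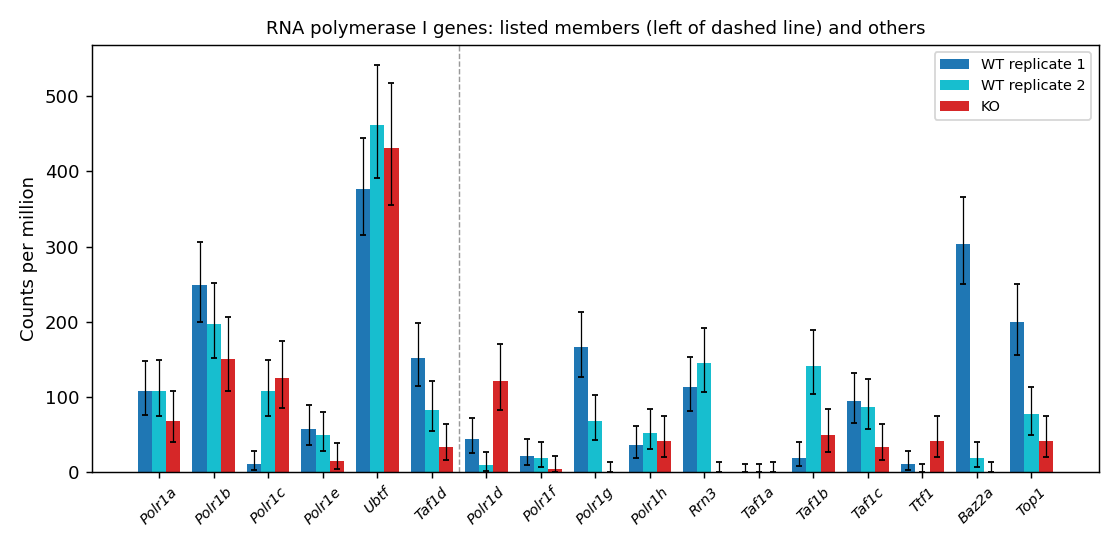
CPM, with 95% exact Poisson intervals, of the 6 RNA polymerase I genes of the group (left of the dashed line) and of 11 others of the same pathway in the 3 libraries. Polr1g, Rrn3 and Baz2a have 0 counts in KO, and Ubtf is the most abundant gene with all 3 libraries between 376 and 462.

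A wider set of ribosome biogenesis genes did not, as a whole, share the lower sum, and its parts differed. The 87 further genes were chosen by role, with earlier results of these data known. They summed to 8052, 7423 and 8666 CPM, so that KO was the highest library. By part, KO was at 135% of the WT mean for large-subunit assembly and 110% for snoRNP genes. It was at 99.5% for the small-subunit processome and 40.9% for RNA polymerase I. Of the 83 tested, 46 had a negative fold change, against 56.9% of all genes tested. Their median was -0.23 and 0 passed the test in either direction. Noc2l (63, 75 and 137 counts), Ftsj3 (37, 24 and 135), Wdr36 (54, 25 and 86) and Riok2 (21, 19 and 50) were higher in KO by the size rule. Ddx27 (92, 98 and 27), Gnl3l (23, 62 and 6) and Noc4l (11, 59 and 2) were lower by it, as were Polr1g and Baz2a. Of the 27 genes that could meet the rule, 4 were thus higher, against 9.64% of all such genes, and 5 lower, against 17.6%. The most abundant were Rrp1 (151, 83 and 162) and Ppan (144, 32 and 133) for the large subunit, Nat10 (86, 98 and 54) and Nol6 (92, 66 and 52) for the small subunit, and Ruvbl2 (32, 148 and 58), Snu13 (50, 32 and 51) and Ruvbl1 (29, 38 and 14) for snoRNP assembly.

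Several members also carry snoRNAs in their introns. In the GENCODE M21 annotation, 7 of the 45 genes contain a snoRNA on the same strand, 15.6% against 2.23% of all genes tested: Ncl, Nop56, Nop58, Dkc1, Wdr43, Gnl3 and Taf1d, with 27 snoRNAs between them. These hosts summed to 3263, 1926 and 2437 CPM, with KO between the WT libraries. The other 38 members summed to 5445, 5502 and 4171, with the WT libraries close together and KO at 76.2% of their mean. Among 12 host RNAs that code for no protein, Gas5 had 197, 152 and 112 counts, Snhg1 had 104, 51 and 35, Snhg5 had 43, 39 and 53, Snhg12 had 38, 2 and 72 and Snhg20 had 86, 42 and 6, with 0 of 11 tested past the test.

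Promoters were searched for the E-box CACGTG, the hexamer that Myc and its relatives are known to bind, which reads the same on both strands. RefSeq promoters (GRCm38.p6, 250 bases before to 50 after the start) were found for 39 of the 45 genes. Of these, 9 held the hexamer in any promoter, or 23.1%. The same share was 8.09% of all 27025 genes with a promoter and 12.6% of the tested genes that had one. The 9 stretches are shown because their genes include Wdr43, Utp18, Sdad1 and Pes1, described above. Capitals mark the hexamer, and each stretch reads 5′ to 3′ on the strand of the gene.
Sdad1 (chr5:92309995-92310030, - strand): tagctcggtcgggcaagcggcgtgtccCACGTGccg
Nop2 (chr6:125131796-125131855, + strand): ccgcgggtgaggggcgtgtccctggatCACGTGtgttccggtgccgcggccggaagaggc
Utp4 (chr8:106893628-106893669, + strand): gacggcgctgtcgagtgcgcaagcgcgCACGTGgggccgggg
Ltv1 (chr10:13193104-13193133, - strand): cgtgctgccctagccctgtggaccCACGTG
Utp20 (chr10:88826772-88826801, - strand): ggcggcgcccagcggcactaactaCACGTG
Pes1 (chr11:3963950-3964004, + strand): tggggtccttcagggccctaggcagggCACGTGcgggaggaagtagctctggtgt
Nle1 (chr11:82908366-82908399, - strand): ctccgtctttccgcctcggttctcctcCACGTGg
Utp18 (chr11:93885754-93885813, - strand): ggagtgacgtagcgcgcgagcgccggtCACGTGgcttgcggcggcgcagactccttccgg
Wdr43 (chr17:71616205-71616244, + strand): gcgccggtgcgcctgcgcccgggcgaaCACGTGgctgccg

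The hexamer began between 60 bases before and 37 bases after the start site, and 7 of the 9 lay after it. Counts were 68, 63 and 1 for Wdr43, 20, 23 and 0 for Utp18, 50, 36 and 2 for Sdad1, 82, 89 and 19 for Pes1 and 130, 26 and 19 for Nop2. For Nle1 they were 29, 10 and 2, for Ltv1 11, 8 and 2, for Utp20 36, 34 and 26, and for Utp4 16, 7 and 13. KO was thus the lowest library in 8 of the 9 on CPM, with Utp4 as the exception and Utp20 nearly level. Over all tested genes, KO was below both WT libraries for 41.4% of those with the hexamer and 37.8% of those without it. Among tested members, which leaves out Ltv1, it was below both for 7 of the 8 with the hexamer and 13 of the 29 without it. Among the further ribosome biogenesis genes with the hexamer, KO was below both for 5 of 11.

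Members with the hexamer summed to 1222, 911 and 317 CPM, and KO was at 26.0% and 34.8% of the WT libraries. The 30 members whose promoters lacked it summed to 5514, 4838 and 5066, with KO between the WT libraries. The median log2 fold change was -2.27 over the 8 tested members with the hexamer (-2.09 with Utp18 at its bound) and -0.48 over the 29 without it. The same split over all tested genes gave -0.35 for 798 genes with the hexamer and -0.30 for 5552 without. In the 87 further genes it gave -0.41 for 11 tested with it (6 negative) and -0.34 for 56 without, and the 11 summed to 1101, 1019 and 778 CPM. This split was chosen after the counts were seen and is given as a description with no test. A match says only that the letters stand in the window.

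**Figure D5:**
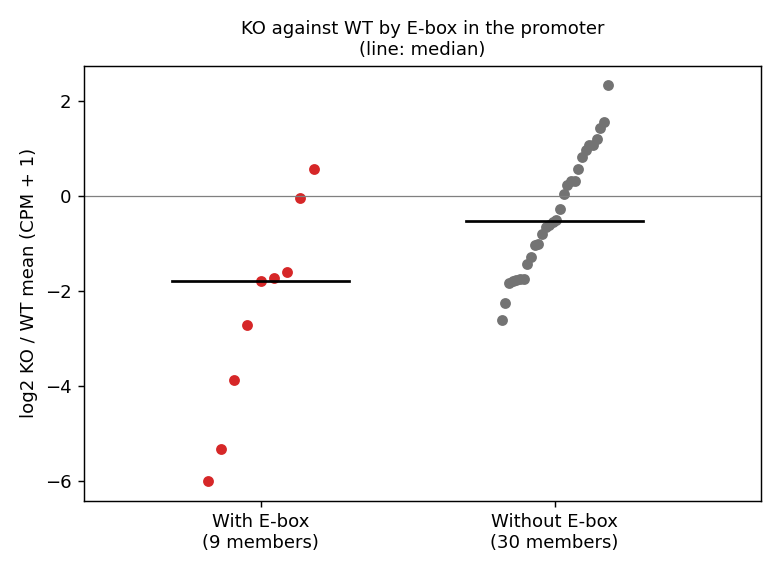
Log2 ratio of KO to the WT mean, on CPM plus 1, for the 9 members whose promoter holds the E-box and the 30 whose promoter does not, with a line at each median. The 4 lowest values are all among the 9, while the 30 spread to both sides of 0.

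In the genome the 45 genes are scattered. On mm10, Wdr43 lies at chr17:71616178-71659031, Sdad1 at chr5:92284010-92310024, Utp18 at chr11:93859243-93885766, Pes1 at chr11:3963975-3980004, Fbl at chr7:28168893-28179269, Utp15 at chr13:98246845-98262992, Taf1d at chr9:15305953-15316997, Rrp1b at chr17:32036162-32062865 and Myc at chr15:61985341-61990361. All 9 code for proteins, and their counts come from the exons of RefSeq transcripts. Pseudogenes named after Gtpbp4 (7), Mrto4 (2) and Npm3 (1) are annotated, and reads shared with such copies make their counts uncertain. Only pseudogenes that carry a member's own symbol were searched for, so copies of other members under other names were not counted. Exons on the opposite strand with counts of their own also overlap Nhp2 (by Rmnd5b, with 14, 70 and 39 counts), Heatr1 (by Lgals8, with 9, 7 and 35), Rrp9 (by Parp3, with 33, 14 and 21), Bop1 (by Mroh1, with 11, 4 and 23), Dkc1 (by Mpp1, with 20, 4 and 7), Bysl (by Ccnd3, with 39, 52 and 27) and Wdr12 (by Carf, with 0, 0 and 3).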

How the data were processed

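RNA was sequenced from sorted LKS cells with the RNeasy micro kit and NEB library kits, per the labels' protocols. The authors deposited whole-number counts and FPKM per RefSeq transcript. STAR and mm10 are named in the submitters' processing notes; the sources used here do not name the counter, the FPKM estimator or the strand setting. Groups came from the sample titles. Each library held 42574 transcript rows, 0 of them naming no gene. A gene's count was the highest over its rows, since rows repeat shared reads, and CPM was taken on the total of gene counts.

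The whole table was fitted with edgeR 4.0.16 under R 4.3.3: filterByExpr, TMM scaling, the quasi-likelihood F-test, and Benjamini-Hochberg adjustment over 7984 genes. With 1 residual degree of freedom, from the WT pair, spread is borrowed across genes, and KO is taken to be as variable as WT. Each SE is the size of the log2 fold change over the root of its F value. Poisson and binomial intervals were exact at 95%. The fit was also run on simulated data with less spread than these libraries, as a check on the sign of the fold changes only. That run cannot tell how often the test finds a difference here. Alternatives used DESeq2 1.42.0, limma 3.58.1 on log2(FPKM + 1), other scalings, filters and gene counts, and each WT library left out.

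Members, lists and tests were chosen with earlier results of these data known. All members are named. Marker lists are given as sums, with 1 gene left out of them and not reported here. Other pathway genes are named if past the test or the size rule, or among the 3 most abundant of their role.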

Additional observations from a re-analysis of the deposited data

How the results depend on the processing

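No member was called in either direction under any of the 9 alternatives that give a test (other scalings, filters, gene counts, DESeq2, and limma on the deposited FPKM), fits that called 0 to 8 of all genes. The median log2 fold change of the members stayed negative under all alternatives: it was -0.78 with no filter on low counts, when all 45 were included, and -0.66 to -0.45 with each WT library left out. Over all genes the median was -0.60 with no filter and -0.13 to -0.11 with a WT library left out. The size rule gave 2 higher members with DESeq2 size factors (9.89% of all genes that could meet it), and 2 to 5 with each WT library left out, where the lower members numbered 8 to 9. In those settings 18.4% to 22.1% of all such genes were higher and 27.0% to 28.1% lower. The cause of these shifts was not tested, apart from the smaller number of libraries to differ from. TMM-scaled totals, an alternative added after the data were seen, put the KO sum of all members at 84.2% of the WT mean in place of 81.9%. No paired analysis was possible because the KO group holds a single library whose label carries no replicate number. At this depth 19 of the 45 genes had under 50 counts in every library, and with 1 KO library no variation among KO samples could be measured.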
